A study of Mus musculus with 8 samples.

Results

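The laminin chains, the proteins that tie laminin to the rest of the basement membrane, and the integrin receptors that hold cells to it were followed in mouse tubuloid cultures with and without a pulse of GDNF. Members were chosen by a rule on gene names that uses no measured value, though earlier results of these data were known by then. They were the symbols formed of Lama, Lamb or Lamc and a number, the symbols of the Itga and Itgb series without the binding proteins of the integrin tails, and *Nid1*, *Nid2*, *Hspg2*, *Agrn*, *Npnt* and *Dag1*. This gave 45 of the 24063 genes listed in the deposited tables: 11 laminin chains, 6 linkers, 18 integrin α subunits, 9 integrin β subunits and *Itgbl1*, which carries a similar name but is not an integrin subunit.

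Every epithelium rests on a basement membrane, a sheet built from networks of laminin and type IV collagen. A laminin is assembled from an α, a β and a γ chain. Nidogens and perlecan bridge the laminin and collagen networks, agrin and laminin bind dystroglycan at the cell surface, and nephronectin is a ligand of the integrin made of *Itga8* and *Itgb1*. In the embryonic kidney, signaling through that integrin is needed for normal GDNF expression in the mesenchyme next to the ureteric bud. Each integrin pairs an α with a β subunit, and the β subunit *Itgb1* is shared by most of the receptors for laminin and collagen.

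Tubuloids are epithelial structures that grow from fragments of kidney tubules embedded in Matrigel, a basement membrane extract that itself contains laminin and nidogen protein. Fragments came from mice at postnatal day 7 to 10 by the sample labels, whereas the methods of the study state a younger range. All cultures, controls included, had the genotype Pkd2fl/fl Pax8rtTA TetOCre mTmG, that is floxed *Pkd2* alleles, a Cre that depends on doxycycline and on the *Pax8* promoter of tubule cells, and a fluorescent reporter. The labels name no doxycycline treatment for either group. GDNF cultures 6, 12, 17 and 22 received medium with GDNF, the ligand of the Ret receptor that drives branching of the ureteric bud, for 24 h and then the same growth factor medium without it. Control cultures 3, 7, 14 and 21 received the growth factor medium alone, and RNA was taken from all on culture day 7 for RNA-Seq. The labels do not say whether the cultures came from separate mice, so p-values measure the spread between these cultures, which may be technical.

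Total counts over all transcripts were between 72991721 and 97490625 per culture, and Pearson correlations across genes ranged from 0.968 to 0.994 over the pairs of cultures. Transcripts of at most 1398 bp took 18.9–26.2% of the counts in the control cultures and 15.8–19.3% in the GDNF cultures, with the highest share in control culture 3. *Xist* RNA marked control cultures 3 and 7 and GDNF cultures 6 and 12, and RNA of Y-linked genes marked the other 4 cultures. The comparison of GDNF with control cultures asks which of these genes differed on culture day 7 after a short pulse of the growth factor.

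Levels of different genes were compared in TPM, the authors' transcript abundance per length, of each gene's most abundant transcript. *Itgb1* had the highest level, at 236 ± 48.6 TPM in the control cultures and 235 ± 32.2 TPM in the GDNF cultures (SD, n = 4 each, as for all values with ±). *Itgb5*, a partner of *Itgav* in receptors for vitronectin, followed with 101 ± 28.2 and 147 ± 30.02 TPM. These were the only members above 100 TPM in either group's mean. Below them, *Nid1* (34.2 ± 13.4 and 56.8 ± 18.03 TPM), *Itga5*, the α subunit of the fibronectin receptor (30.7 ± 16.6 and 56.9 ± 24.2 TPM), *Lamb1* (28.1 ± 5.89 and 48.1 ± 6.46 TPM) and *Agrn* (27.5 ± 7.06 and 48.7 ± 11.02 TPM) had levels whose ranges over cultures overlapped each other, so that their order was not fixed by these data.

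**Figure D1:**
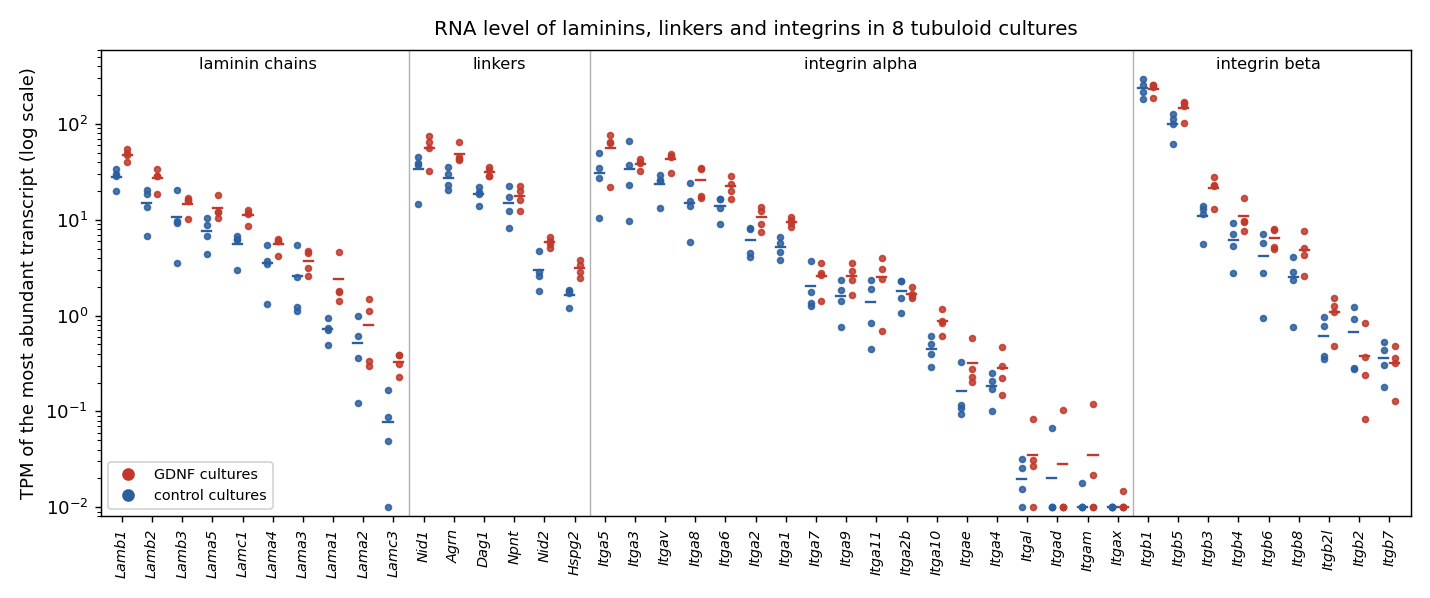
Level of the members in each culture, as TPM of the most abundant transcript on a log axis, grouped by role and ordered by mean; points are cultures, horizontal bars are group means, and values under 0.01 TPM are drawn at 0.01. *Itgbl1* and 1 laminin chain are left out, and *Itgb1* stands highest with 181 to 293 TPM over all 8 cultures.

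At the low end stood the integrin subunits of leukocytes. *Itgad*, *Itgam*, *Itgax* and the unrelated *Itgbl1* had too few counts for the test, with at most 54 counts in any culture, and *Itgax* had 3 counts in GDNF culture 12 and none elsewhere. *Itgal* was tested but had 0 to 84 counts. The leukocyte marker *Cd3e* was at 0 in all 8 cultures, and the 7 listed leukocyte markers summed to 12.02–37.2 TPM in the control cultures and 21.005–43.96 TPM in the GDNF cultures.

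Groups were compared on counts summed over the transcripts of a gene and expressed as CPM, scaled to the library total after TMM normalization, which corrects for differences in RNA composition. Of the 45 members, 41 had enough counts to be tested among 16557 genes. None differed at an adjusted p of 0.05 by the quasi-likelihood test of edgeR with Benjamini-Hochberg adjustment (0 of 41, beside 0.0% of all genes tested), and the smallest adjusted p among members was 0.167. At an unadjusted edgeR p of 0.05 there were 10 members with a higher mean in the GDNF cultures, beside 9.25% of all genes, and 1 with a lower mean, beside 12.9%. With GDNF culture 12 or control culture 21 left out the first of these counts was 5, and without GDNF culture 17 it was 6. Scaled by library size alone, 15 members had a higher mean at that p (19.9% of all genes) and 0 a lower one (5.13%). Leaving out GDNF culture 12 gave 2 members with a lower mean, and leaving out GDNF culture 6, 17 or 22 or control culture 14 gave 0. Shares over all genes are not given here for fits with a culture left out. Those counts are therefore not read as particular to the members. DESeq2, the tool named by the study, gave an adjusted p to 24 members and called 3 of them, *Lamc1* (adjusted p = 0.0337), *Hspg2* (0.0395) and *Itga1* (0.0454), all higher in the GDNF cultures, beside 2.06% of genes called higher and 14.4% called in either direction.

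The median log2 fold change (GDNF over control) was 0.39 over the 41 members and 0.03 over all genes tested. It was 0.39 for laminin chains (0.63 without control culture 14), 0.41 for linkers and 0.42 for integrin subunits, and 33 of the 41 members had a positive value, beside 52.5% of all genes. These genes are long: the median length of their most abundant transcripts was 5539 bp, beside 2674 bp for all genes tested. With all genes split by transcript length into 10 bins of equal size, the median log2 fold change went from -0.35 in bin 2 to 0.26 in bin 9 and 0.38 in bin 10, the longest, and 14 members were in bin 9 and 15 in bin 10.

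**Figure D2:**
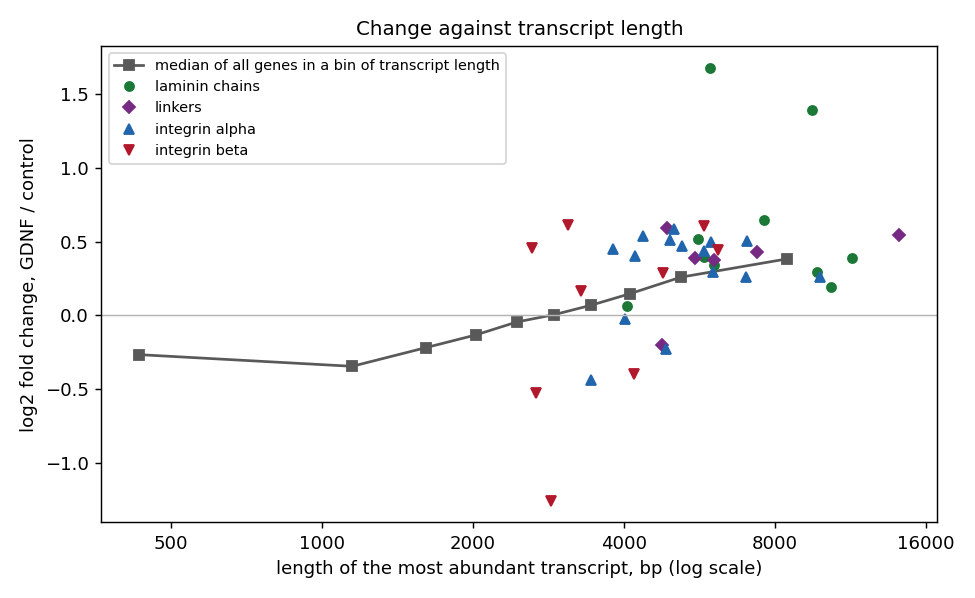
Log2 fold change against the length of the most abundant transcript (log axis, bp). Grey squares are medians of all genes in 10 bins of length, from -0.35 in bin 2 to 0.38 in bin 10, and colored symbols are 40 of the members tested, of which 15 lay in the longest bin.

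A smooth trend with transcript length was then fitted in each culture and entered in the edgeR fit as an offset. With it, the median of the members was 0.08 and that of all genes -0.03. A positive value was left for 25 of the 41 members, beside 46.3% of all genes. By group, the medians were then 0.08 for laminin chains, 0.06 for linkers and 0.13 for integrin subunits. Unadjusted p-values of 0.05 or less were left for *Lamc1* and *Lama1* with a higher mean, beside 5.62% of all genes, and for *Itgb1* and *Itga2b* with a lower mean, beside 12%. Whether the length trend came from the libraries or from the cells was not tested here. For members whose values are given culture by culture, the value with length offsets therefore follows the log2 fold change.

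**Figure D3:**
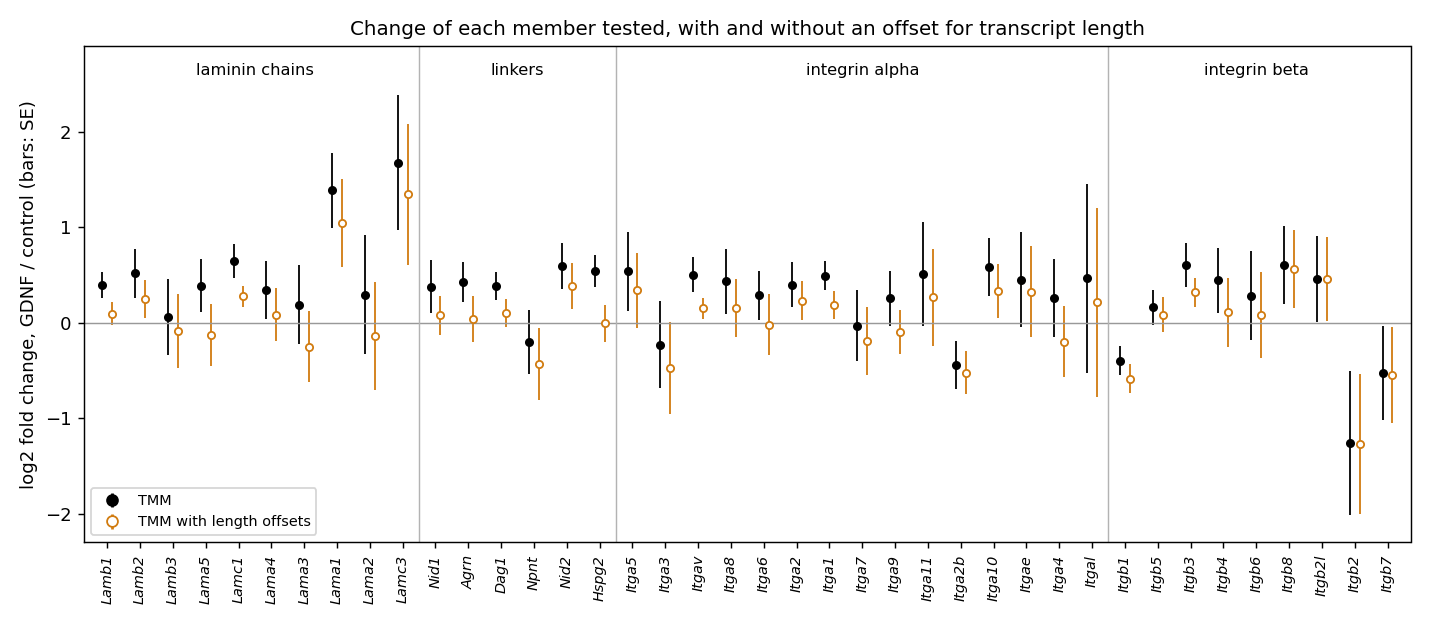
Log2 fold change of 40 of the members tested, with standard errors, without (filled) and with (open) an offset for transcript length. Most filled points lie above 0, and the medians over all members tested were 0.39 without and 0.08 with the offset.

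The 4 values of the GDNF cultures lay wholly above those of the control cultures in CPM for 6 members, *Lamc1*, *Lama1*, *Lamb1*, *Lamc3*, *Hspg2* and *Itga1*, beside 6.99% of all genes, and wholly below for 1, *Itgb1*, beside 6.26%. In TPM, which carries no correction for composition, 10 members were wholly above (20.6% of all genes) and none wholly below (0.61%). With library size as the only scaling, 8 were wholly above (14.5%) and 0 wholly below (2.10%). After removal of the length trend from CPM, 1 laminin chain was wholly above (4.49% of all genes) and 2 integrin subunits wholly below (6.28%).

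Among the laminin chains, *Lama1*, *Lamb1* and *Lamc1* encode the chains of the laminin that is abundant in early embryonic basement membranes and in Matrigel, and all of them had unadjusted p-values under 0.05. *Lamc1* (NM_010683, chromosome 1, 153218922–153332786, GRCm38), the most widely used γ chain, was at 19.7, 29.8, 31.8 and 27.0 CPM in control cultures 3, 7, 14 and 21 and at 35.6, 44.2, 47.9 and 42.3 CPM in GDNF cultures 6, 12, 17 and 22. The groups did not overlap. This gave a log2 fold change of 0.65 (SE 0.17, edgeR unadjusted p = 0.0041, adjusted p = 0.167), a fold of 1.57, and with length offsets one of 0.28 (SE 0.11, unadjusted p = 0.031).

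*Lama1* (NM_008480, chromosome 17, 67697127–67822645) had 4.00, 5.61, 4.43 and 3.93 CPM in the control cultures, in the same order, and 23.6, 6.76, 8.48 and 8.17 CPM in the GDNF cultures. All GDNF cultures were above all controls, and GDNF culture 6 stood far above the other 3. Its log2 fold change was 1.39 (SE 0.39, unadjusted p = 0.0053) and with length offsets 1.04 (SE 0.46, unadjusted p = 0.048). Without GDNF culture 6 it was 0.80 (SE 0.22).

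*Lamb1* (NM_008482, chromosome 12, 31265146–31329644), the β chain of the same laminin, was at 98.1, 121, 104 and 101 CPM in the controls and at 123, 160.1, 139 and 135 CPM in the GDNF cultures. Control culture 7 and GDNF culture 6 nearly met. A log2 fold change of 0.39 (SE 0.14, unadjusted p = 0.016) became 0.09 (SE 0.12, unadjusted p = 0.44) with length offsets.

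*Lamc3*, a rarer γ chain, was close to the limit of detection in the control cultures, with 32, 3, 17 and 48 counts beside 114, 94, 66 and 87 counts in the GDNF cultures. In CPM these were 0.443, 0.0313, 0.181 and 0.571 against 1.23, 0.937, 0.678 and 1.078, without overlap. *Lamc3* had a log2 fold change of 1.68 (SE 0.70, unadjusted p = 0.038), and with length offsets one of 1.34 (SE 0.74, unadjusted p = 0.0985). A predicted gene on the other strand shares 329 bp of its exons. Whether the authors' counting used the strand is not given in the sources used here.

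**Figure D4:**
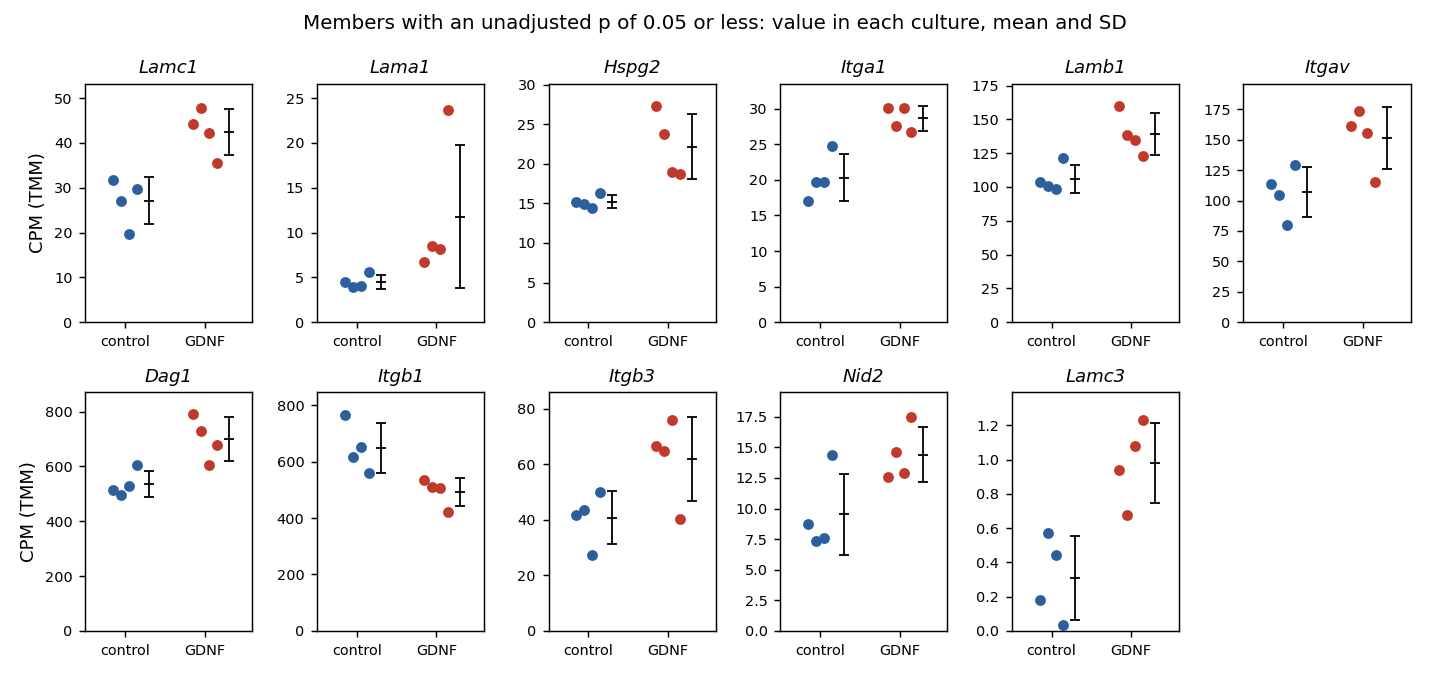
CPM with TMM of the 11 members with an unadjusted edgeR p of 0.05 or less; points are cultures and bars are group means with SD (n = 4). Only *Itgb1* is lower in the GDNF cultures, and GDNF culture 6 sets the wide error of *Lama1*.

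*Lama3* and *Lamb3* encode chains of the laminin found in hemidesmosomes and had unadjusted edgeR p-values of 0.656 and 0.878. *Lamb3* was at 18.1 to 95.9 CPM in the controls and 44.4 to 67.7 CPM in the GDNF cultures, and *Lama3* went from 7.28 to 33.0 CPM and from 14.2 to 23.3 CPM. The control range thus enclosed every GDNF culture for both. The log2 fold changes of 0.19 (SE 0.41) for *Lama3* and 0.06 (SE 0.40) for *Lamb3* were -0.25 (SE 0.38) and -0.09 (SE 0.39) with length offsets.

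*Lamb2*, the β chain of mature glomerular and vascular laminins, was at 32.8, 66.02, 71.4 and 44.3 CPM in the controls and 56.3, 94.7, 80.5 and 75.9 CPM in the GDNF cultures. The groups overlapped through GDNF culture 6 (log2 fold change 0.52, SE 0.26, unadjusted p = 0.071; 0.25, SE 0.20 with length offsets). *Lama5*, the α chain of most adult epithelial basement membranes, had a log2 fold change of 0.39 (SE 0.27) that was -0.13 (SE 0.33) with length offsets. *Lama4* and *Lama2*, chains of vessels and muscle, had values of 0.34 (SE 0.30) and 0.29 (SE 0.62).

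The make-up of the α and β chain classes was compared as the share of a chain in the summed TPM of its class, a measure in which the scaling of the library cancels. *Lama5* made up 51.8 ± 14.98% of α chain RNA in the control cultures and 50.7 ± 8.70% in the GDNF cultures, and *Lamb1* made up 52.6 ± 3.81% and 53.7 ± 2.79% of β chain RNA. The share of *Lama1* was 4.94 ± 0.941% and 9.48 ± 5.92%, the difference with the smallest exact p of the 15 shares compared (exact permutation test over all 70 assignments, two-sided, p = 0.0857, adjusted p = 0.857). No share had an adjusted p below this value, and the smallest p the design allows for a single share is 0.0286. Adjusted over 15 shares, a single share could not go below 0.429, so the adjusted test could not call a single share.

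**Figure D5:**
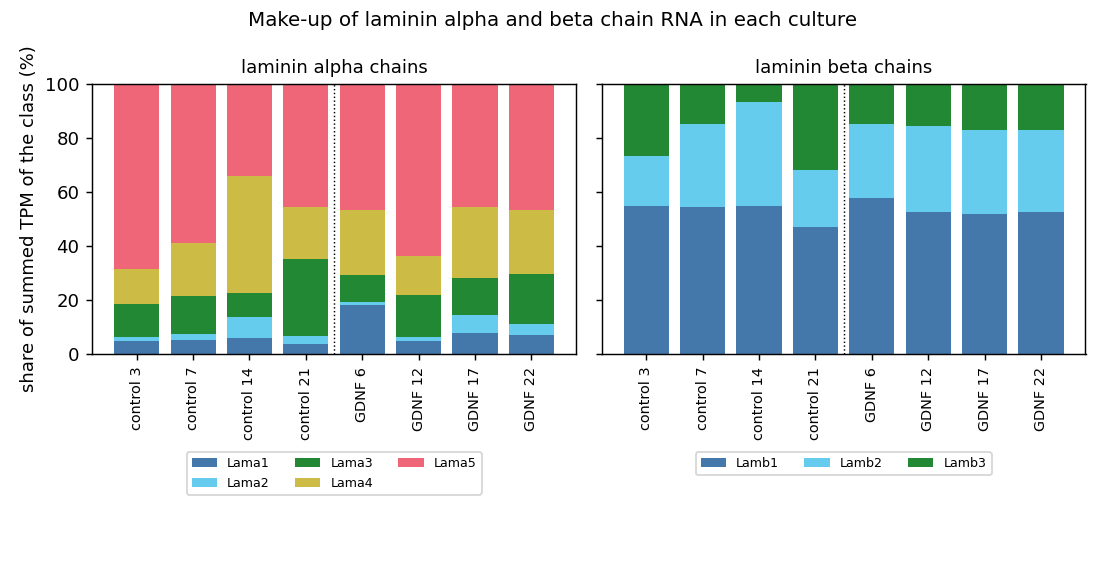
Share of each laminin chain (%) in the summed TPM of the α and β chains in each culture, controls on the left of the dotted line. *Lamb1* made up the largest share of its class in all 8 cultures, and *Lama5* did in all but control culture 14, where *Lama4* was ahead.

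Among the linkers, *Hspg2* (NM_008305, chromosome 4, 137468751–137570630) encodes perlecan, a heparan sulfate proteoglycan. It was at 14.4, 16.3, 15.2 and 14.9 CPM in the controls and at 18.7, 27.3, 23.7 and 19.0 CPM in the GDNF cultures, so that the groups did not overlap and the controls lay close together. The log2 fold change was 0.54 (SE 0.17, unadjusted p = 0.0082). Its transcript of 14177 bp was the longest of all members, and with length offsets the value was -0.01 (SE 0.20, unadjusted p = 0.98).

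*Dag1* (NM_001276493, chromosome 9, 108204861–108263977) encodes dystroglycan, the non-integrin receptor for laminin, agrin and perlecan. Its sums over 8 listed transcripts were 530.1, 604, 514 and 495 CPM in the controls and 676, 791, 727 and 603 CPM in the GDNF cultures, with GDNF culture 22 level with control culture 7. The log2 fold change of 0.39 (SE 0.14, unadjusted p = 0.024) was 0.10 (SE 0.15) with length offsets.

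The nidogens connect laminin to type IV collagen. *Nid2* was at 7.63, 14.4, 8.77 and 7.32 CPM in the controls and at 17.5, 12.5, 14.6 and 12.9 CPM in the GDNF cultures (log2 fold change 0.59, SE 0.25, unadjusted p = 0.036; 0.39, SE 0.24, unadjusted p = 0.138 with length offsets). Control culture 7 lay among the GDNF cultures, and 437 bp of *Nid2* exons overlap a gene on the other strand. The more abundant *Nid1* had 75.8, 143, 169 and 138 CPM in the controls and 104, 169, 225 and 184 CPM in the GDNF cultures, which overlapped (log2 fold change 0.38, SE 0.28, unadjusted p = 0.21; 0.08, SE 0.21 with length offsets). It made up 91.4 ± 2.89% and 89.8 ± 4.64% of nidogen TPM.

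*Agrn*, which encodes the heparan sulfate proteoglycan agrin, was at 147, 166, 93.3 and 129 CPM in the controls and at 167, 241, 158 and 156 CPM in the GDNF cultures. GDNF culture 12 stood above the rest, and the log2 fold change of 0.43 (SE 0.21, unadjusted p = 0.069) was 0.04 (SE 0.24) with length offsets. *Npnt*, which encodes nephronectin, was the linker with a lower mean, at 122 to 356 CPM in the controls and 146 to 284 CPM in the GDNF cultures (log2 fold change -0.20, SE 0.33; -0.43, SE 0.37 with length offsets).

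Integrin α subunits are described by ligand. Of the collagen receptors *Itga1*, *Itga2*, *Itga10* and *Itga11*, *Itga1* (NM_001033228, chromosome 13, 114958079–115101964) was at 19.8, 24.8, 17.05 and 19.7 CPM in the controls and at 26.7, 30.1, 27.6 and 30.2 CPM in the GDNF cultures. The groups did not overlap, and the GDNF cultures lay close together. Its log2 fold change was 0.49 (SE 0.15, unadjusted p = 0.0084), and with length offsets 0.19 (SE 0.15, unadjusted p = 0.24). The other 3 had log2 fold changes of 0.40 (SE 0.23), 0.59 (SE 0.30) and 0.51 (SE 0.54), in the order given.

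The laminin receptors use *Itga3*, *Itga6* and *Itga7*. *Itga3* varied in the controls from 29.6 CPM in culture 14 to 186 CPM in culture 21, with 156 and 70.5 CPM in cultures 3 and 7, and was at 112, 97.9, 77.7 and 90.3 CPM in the GDNF cultures. As with *Lamb3*, the control range enclosed the GDNF cultures (log2 fold change -0.23, SE 0.46; -0.47, SE 0.48 with length offsets). *Itga6*, which pairs with *Itgb4* in hemidesmosomes, had a log2 fold change of 0.29 (SE 0.26) and *Itga7* one of -0.03 (SE 0.38). *Itga3* made up 63.4 ± 12.8% of the TPM of these subunits in the controls and 61.0 ± 2.40% in the GDNF cultures (exact permutation p = 0.771).

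*Itgav*, *Itga5* and *Itga8* belong to receptors for ligands such as vitronectin, fibronectin and nephronectin. *Itgav* was at 80.1, 129, 113 and 105 CPM in the controls and at 115, 161, 174 and 156 CPM in the GDNF cultures, and GDNF culture 6 fell within the control range. The log2 fold change was 0.50 (SE 0.18, unadjusted p = 0.021) and 0.15 (SE 0.11) with length offsets. *Itga5* was at 39.2, 95.1, 137 and 68.3 CPM in the controls and at 50.9, 139, 169 and 134 CPM in the GDNF cultures, with control culture 3 and GDNF culture 6 the lowest of their groups (log2 fold change 0.54, SE 0.41; 0.34, SE 0.39 with length offsets). *Itga8* had 29.0 to 87.3 and 48.6 to 101 CPM (0.43, SE 0.34), and its exons share 372 bp with a gene on the other strand.

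*Itga9*, which binds tenascin and osteopontin, had a log2 fold change of 0.26 (SE 0.29) that turned to -0.10 (SE 0.23) with length offsets. *Itga4*, *Itgae* and *Itgal*, known mainly from leukocytes and all with mean CPM under 2 in both groups, had values of 0.26 (SE 0.40), 0.45 (SE 0.50) and 0.47 (SE 0.99). *Itga2b*, the α subunit of the platelet fibrinogen receptor, was at 2.59 to 3.40 CPM in the GDNF cultures and 3.17 to 4.92 CPM in the controls (-0.44, SE 0.25, unadjusted p = 0.104; -0.52, SE 0.23, unadjusted p = 0.046 with length offsets). The 4 platelet markers listed summed to 38.4–47.8 TPM in the GDNF cultures and 8.74–526 TPM in the controls, and their part in the value was not tested.

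Integrin β subunits included the member with the lowest unadjusted p in the negative direction. *Itgb1* (NM_010578, chromosome 8, 128685654–128733579) was at 653, 559, 766 and 616 CPM in the controls and at 419.8, 533, 509 and 505 CPM in the GDNF cultures. Every GDNF culture lay below every control, with GDNF culture 12 and control culture 7 nearest to each other. The log2 fold change was -0.40 (SE 0.15, unadjusted p = 0.026, adjusted p = 0.187), and with length offsets -0.58 (SE 0.15, unadjusted p = 0.0029). Scaled by library size alone, without TMM, it was -0.18, and in TPM the groups overlapped with nearly equal means, so that the separation depended on the correction for composition.

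*Itgb3* and *Itgb5* both pair with *Itgav*. *Itgb3* was at 27.5, 50.2, 41.7 and 43.5 CPM in the controls and at 40.4, 66.7, 64.8 and 75.9 CPM in the GDNF cultures, and GDNF culture 6 lay within the control range (log2 fold change 0.61, SE 0.23, unadjusted p = 0.026; 0.32, SE 0.16 with length offsets). *Itgb5* was at 349.9, 466, 521 and 384 CPM and at 362, 505, 539 and 522 CPM, with wide overlap (0.16, SE 0.18; 0.08, SE 0.18 with length offsets). Among the partners of *Itgav*, *Itgb5* made up 85.2 ± 3.78% of the TPM in the controls and 81.9 ± 2.02% in the GDNF cultures (exact permutation p = 0.229).

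*Itgb4* belongs to hemidesmosomes, and the integrins of *Itgb6* and *Itgb8* activate latent TGF-β. Their log2 fold changes were 0.44 (SE 0.35), 0.29 (SE 0.47) and 0.61 (SE 0.41). *Itgb4* was 2.63 ± 1.16% of the summed TPM of *Itgb1* and *Itgb4* in the controls and 4.44 ± 1.40% in the GDNF cultures (exact permutation p = 0.114, adjusted p = 0.857). The leukocyte subunits *Itgb2*, *Itgb2l* and *Itgb7* had mean levels of at most 1.09 TPM in either group and log2 fold changes of -1.26 (SE 0.75), 0.46 (SE 0.45) and -0.53 (SE 0.49).

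The stretches just upstream of the annotated gene are shown for *Hspg2*, *Itga1*, *Dag1* and *Itgb1*, the members with unadjusted p-values under 0.05 for which the reference table had an entry outside any annotated gene span. They are from RefSeq (GRCm38.p6), 5′ to 3′ on the strand of the gene, and capitals mark GGGCGG, the core of the site bound by SP1-type factors, on either strand.
Hspg2, chr4:137468553-137468750, plus strand: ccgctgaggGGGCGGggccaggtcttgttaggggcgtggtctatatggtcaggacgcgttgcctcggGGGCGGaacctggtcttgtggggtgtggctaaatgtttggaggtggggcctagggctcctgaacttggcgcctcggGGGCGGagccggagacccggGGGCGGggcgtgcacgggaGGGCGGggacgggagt
Itga1, chr13:115101965-115102214, minus strand: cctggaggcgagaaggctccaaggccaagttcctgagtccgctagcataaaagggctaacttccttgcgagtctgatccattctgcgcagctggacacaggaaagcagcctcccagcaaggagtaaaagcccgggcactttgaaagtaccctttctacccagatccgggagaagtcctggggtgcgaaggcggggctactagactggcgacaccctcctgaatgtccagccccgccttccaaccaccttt
Dag1, chr9:108263978-108264208, minus strand: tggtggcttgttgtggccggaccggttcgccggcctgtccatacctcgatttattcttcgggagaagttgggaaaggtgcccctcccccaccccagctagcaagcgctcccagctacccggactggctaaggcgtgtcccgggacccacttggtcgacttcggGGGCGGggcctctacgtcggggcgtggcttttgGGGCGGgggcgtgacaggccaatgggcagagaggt
Itgb1, chr8:128685404-128685653, plus strand: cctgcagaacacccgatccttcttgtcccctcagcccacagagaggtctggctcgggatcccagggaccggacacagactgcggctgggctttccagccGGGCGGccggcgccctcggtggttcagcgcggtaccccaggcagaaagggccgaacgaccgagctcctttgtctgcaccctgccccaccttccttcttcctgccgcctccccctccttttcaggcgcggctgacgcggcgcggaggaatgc

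The stretch of *Hspg2* held 5 matches, that of *Dag1* 2 and that of *Itgb1* 1, and none was in that of *Itga1*. The 30 members with a window of 250 bases before the start had 36 such windows. Of these windows, 17 held GGGCGG (in 14 members), beside 32.7% of all 32851 windows. TGANTCA, the AP-1 motif, was in 1 of the 36 windows (*Itgax*), beside 6.75%, and TATAAA in 0, beside 12.4%. Some genes have several windows.

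Genes that work with these proteins were taken as lists, chosen with earlier results of these data known. Their counts at an unadjusted edgeR p of 0.05 stand beside 9.25% of all genes higher and 12.9% lower. Of 33 focal adhesion adaptors and kinases tested, 1 had a higher mean at that p, *Tns1* (log2 fold change 0.64, SE 0.19), and 1 a lower one, *Crk* (-0.46, SE 0.17). With length offsets *Tns1* had 0.22 (unadjusted p = 0.088) and *Crk* -0.81 (unadjusted p = 0.0017). The median of the list was 0.11, and -0.09 with length offsets. *Ilk*, the kinase that binds the tail of *Itgb1*, had -0.34 (SE 0.16).

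The Fraser complex, which anchors embryonic epithelia to their basement membrane, had a median of 0.97 over its 4 tested genes and 0.66 with length offsets. *Frem2* (1.10, SE 0.30, unadjusted p = 0.0048), *Fras1* (1.11, SE 0.41, unadjusted p = 0.023) and *Grip1* (0.83, SE 0.37, unadjusted p = 0.047), the adaptor that carries them to the cell surface, had higher means, while *Frem1* had 0.23 (SE 0.55). For *Frem2* the groups did not overlap, with 10.8 ± 5.12 CPM in the controls and 23.2 ± 3.10 CPM in the GDNF cultures. With length offsets the p of *Frem2* was 0.015, and those of *Fras1* and *Grip1* were 0.117 and 0.123.

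Of 7 hemidesmosome and laminin-binding partners, *Dst* had a higher mean (0.53, SE 0.13) and *Cd151*, a tetraspanin that binds laminin receptors, a lower one (-0.90, SE 0.34). Among 19 basement membrane collagens and other integrin ligands, 1 passed the unadjusted p, *Spp1*, which encodes osteopontin (-0.67, SE 0.29), and the type IV collagen genes *Col4a1* and *Col4a2* had 0.42 (SE 0.33) and 0.42 (SE 0.36). The enzymes that build the sugar chains of dystroglycan gave 1 of 12, *Tmem5* (-0.49, SE 0.15), and the dystrophin complex 2 of 11, *Utrn* with a higher mean (0.71, SE 0.24) and *Sgce* with a lower one (-0.61, SE 0.23). Medians of these 4 lists were 0.05, 0.19, 0.17 and -0.06, and -0.09, -0.05, 0.07 and -0.10 with length offsets. With the offsets, *Dst* turned to -0.09 and *Utrn* had 0.24 (unadjusted p = 0.62 and 0.116), and *Col4a1* and *Col4a2* had 0.10 and 0.11. *Cd151* had -0.79 (unadjusted p = 0.043), whereas *Spp1* (-0.46), *Tmem5* (-0.26) and *Sgce* (-0.50) had unadjusted p-values from 0.053 to 0.086.

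In the control cultures, markers of other cell types moved with several members. Epithelial markers summed to 3145, 1881, 865 and 348 TPM in control cultures 21, 3, 7 and 14, and *Lamb3* (20.5, 9.69, 9.27 and 3.58 TPM), *Itga3* (66.3, 37.5, 23.3 and 9.81 TPM) and *Npnt* (22.6, 17.5, 12.3 and 8.31 TPM) followed the same order. *Itgb4* (9.31, 5.28, 7.09 and 2.80 TPM) and *Itga6* (16.5, 13.3, 16.5 and 8.97 TPM) did not in TPM, with culture 7 above culture 3. In CPM with TMM, culture 3 was above culture 7 for both. *Itgb4* was then at 66.3, 55.8, 54.5 and 21.5 CPM, in the order of the marker sums in TPM. *Itga6* was at 115, 137, 123 and 67.1 CPM, highest in culture 3. For these genes the order of cultures 3 and 7 thus depended on the scaling. The examples were picked from among the members, and how many members share the order is not given here. The GDNF cultures were closer together, with 869 to 1245 TPM of epithelial markers, and did not keep this order: *Lamb3* was lowest (10.3 TPM, beside 15.8 to 16.7 TPM) in culture 6, which had the most epithelial markers, and *Itga3* and *Npnt* were lowest in culture 17. Collecting duct markers summed to 122–1098 TPM in the controls and 295–352 TPM in the GDNF cultures, and proximal tubule markers to at most 12.3 TPM in any culture.

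Stromal and mesangial markers summed to 984, 359, 357 and 101 TPM in control cultures 14, 7, 21 and 3, highest in the culture with the fewest epithelial markers. *Itga8* (24.3, 15.8, 13.9 and 5.84 TPM), *Itga5* (50.3, 34.9, 27.1 and 10.5 TPM) and *Itga11* (2.36, 1.88, 0.8293 and 0.448 TPM) were ordered alike. Control cultures 7 and 21 were nearly level in the stromal sum, so their order is not fixed by it. Here too the members are picked examples, and how many share the order is not given. In the GDNF cultures the stromal sum was lowest in culture 6, at 122 TPM, and 507 to 844 TPM in the others, and *Itga5* and *Itga11* were lowest in culture 6 as well. *Itga8* was lowest in culture 12, at 16.8 TPM, with 17.9 TPM in culture 6. In bulk RNA, fewer cells of a type and less RNA per cell cannot be told apart, and the part of cell mixture in the differences between groups was not tested.

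*Xist* cultures and Y-linked cultures were present in both groups, and within each kind the members were compared again. GDNF culture 6 and control culture 3 were counted as *Xist* cultures although each held some Y-linked RNA, so that kind was not uniform. The measure here was the difference of mean log2 CPM, not the edgeR log2 fold change, and the signs of these can differ. *Itga7*, for example, had 0.04 within the *Xist* and 0.03 within the Y-linked cultures, beside an edgeR value of -0.03. This log2 difference had the same sign in both kinds for 37 of 41 members, with medians of 0.35 within the *Xist* cultures and 0.44 within the Y-linked cultures. No member had an unadjusted p of 0.05 or less for a different effect of GDNF in the kinds (edgeR interaction, smallest unadjusted p = 0.291). With so few cultures of each kind in a group, this test could not show that the effect was the same in both. For neither count is the share over all genes given here, so neither is read as particular to the members.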

How the data were processed

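RNA-Seq libraries of 8 mouse tubuloid cultures, 4 with a GDNF pulse and 4 controls, were prepared from poly-A RNA with SMART-Seq v4 reagents, and groups were taken from the sample labels. The authors mapped reads with STAR (mm10, equivalent to GRCm38), and featureCounts and DESeq2 are also named in the submitters' processing notes, without versions. Strand handling and the rule for reads that fit several genes are not given in the sources used here. The deposited tables give unnormalized counts by RefSeq transcript, and a read shared by transcripts of 1 gene is counted in every one of them. The deposited FPKM values are scaled by the authors to length and depth and were used only to obtain transcript lengths. TPM values, which the authors scaled to length and to a fixed total, were used for levels and shares. Samples were sequenced on several lanes, and the lane of each culture is not given in the sources used here, so lane and group cannot be told apart.

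Summed counts of each symbol entered the quasi-likelihood test of edgeR 4.0.16 (R 4.3.3; filterByExpr, TMM, glmQLFTest), and p-values were adjusted over 16557 genes by Benjamini-Hochberg with a threshold of 0.05. The SE is the absolute log2 fold change divided by the square root of F. Cultures of a group varied by 36.8% (biological coefficient of variation), and TMM factors were 0.790 in control culture 3, 0.963–0.982 in the other controls and 1.07–1.11 in the GDNF cultures. At these depths counting error was small beside that spread except for members with few counts. Shares were compared by exact permutation over 70 assignments. Alternatives were DESeq2 1.42.0 (an adjusted p of NA was kept as NA), its size factors, library size only, no filter, 1 transcript per gene, length offsets (a spline with 5 degrees of freedom per culture), a covariate for *Xist* or Y-linked cultures, and each culture left out. The interaction with kind of culture, shares within kinds and overlap after removal of the length trend were added after seeing the data.

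Values per culture are given for members with an unadjusted p of 0.05 or less or no overlap, and for the 3 members with the highest TPM in each role. From each other list, up to 4 genes with the smallest p were to be named, and *Col4a1* and *Col4a2* were named after their values were seen. The members and lists were chosen with earlier results of these data known. 1 laminin chain, counted among the members, and the shares of its class, counted among the 15, are not reported here. Protein sequences were not used here. The fits were tested on simulated data, and figures were drawn with Python 3.11.15, NumPy 2.4.6, pandas 2.3.3 and matplotlib 3.10.9.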

Additional observations from a re-analysis of the deposited data

Results flagged for a closer look

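In each group of 4 cultures, 1 culture was set apart when its gap to the nearest other was large for the range of the group (Dixon's test at 95%), which chance gives in about 1 of 20 groups. This held for 13 of 114 groups of values examined, where about 6 are given by chance. That rate is for independent values with a normal spread. Shares of a class depend on each other, and for *Itgam* and *Itgax* the other cultures of the group were at 0. The excess over that number is therefore not read as a result.

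*Lama1* was at 23.6 CPM in GDNF culture 6, beside 6.76 to 8.48 CPM in the other GDNF cultures. This culture also had the highest share of *Lamb1* among β chains, 57.8% beside 52.0–52.5%, and the lowest share of *Nid1* among the nidogens, 82.8% beside 91.6–92.6%. *Agrn* was at 240.7 CPM in GDNF culture 12, beside 156 to 167 CPM, and the share of *Lama5* among α chains was 63.8% there, beside 45.8–46.8%. In control culture 21, *Lamb1* took 46.9% of β chain TPM, beside 54.5–54.6%.

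*Itgae*, the α subunit of intraepithelial T cells and some dendritic cells, was at 2.01 CPM (202 counts) in GDNF culture 12, beside 0.867 to 0.874 CPM, and at 1.63 CPM (156 counts) in control culture 7, beside 0.544 to 0.609 CPM. Both are cultures with *Xist* RNA. The remaining values set apart rest on few counts: *Itgad* at 0.205 CPM (20 counts) in GDNF culture 17 and 0.155 CPM (13 counts) in control culture 21, *Itgam* at 0.104 CPM (10 counts) in control culture 7, *Itgax* at 0.0299 CPM (3 counts) in GDNF culture 12, and *Itgbl1* at 0.322 CPM (26 counts) in GDNF culture 22.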

How the results depend on the processing

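No paired analysis was possible because the groups share no culture numbers. The sign of the log2 fold change was the same for all members tested with the DESeq2 test, its size factors in edgeR, no filter on low counts, 1 transcript per gene or a covariate for kind of culture. DESeq2 called 3 members where edgeR called 0. With edgeR, the smallest adjusted p of a member was 0.142 to 0.381 over all settings. With length offsets, members past an unadjusted p of 0.05 numbered 2 higher and 2 lower, and median log2 fold changes were 0.084 for members, 0.084 for laminin chains, 0.057 for linkers and 0.131 for integrin subunits. The sign turned for *Hspg2* (-0.0054), *Itga4* (-0.20), *Itga6* (-0.017), *Itga9* (-0.097), *Lama2* (-0.14), *Lama3* (-0.25), *Lama5* (-0.13) and *Lamb3* (-0.088). With library size only, the number lower was 0, the medians were 0.61 for members and 0.626 for linkers where that of all genes was 0.25, and the sign turned for *Itga3* (0.013), *Itga7* (0.20) and *Npnt* (0.048). Members without overlap numbered 10 higher and 0 lower in TPM, 1 higher and 2 lower after removal of the length trend, and 0 lower with library size only. The difference in the share of *Itgb6* was -0.00647 percentage points from counts in place of TPM. The cause of these changes was not tested.

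With each culture left out in turn, edgeR called 0 members, 5 to 12 were past the unadjusted p higher and 0 to 2 lower, and medians were 0.32 to 0.46 for members, 0.34 to 0.63 for laminin chains (0.63 without control culture 14), 0.35 to 0.50 for linkers and 0.26 to 0.47 for integrin subunits. The share of all genes past that p in these fits is not given here. Among the members whose sign turned, the ranges were -0.54 to 0.11 for *Itga3*, -0.099 to 0.46 for *Itga4*, -0.22 to 0.28 for *Itga7*, -0.36 to 0.88 for *Itgal*, -0.049 to 0.53 for *Itgb6*, -0.20 to 0.80 for *Lama2*, -0.062 to 0.70 for *Lama3*, -0.23 to 0.40 for *Lamb3* and -0.42 to 0.043 for *Npnt*. A further 19 members kept their sign but moved by over 1.5 times without at least 1 culture, 13 of them without control culture 14 and 9 without control culture 3, with ranges such as 0.26 to 0.55 for *Agrn*, 0.067 to 0.28 for *Itgb5*, 0.16 to 0.58 for *Itgb4*, 0.13 to 0.63 for *Lama4*, 0.18 to 0.54 for *Lama5* and 0.19 to 0.55 for *Nid1*. The differences in share ranged, in percentage points, from -7.16 to 2.05 for *Itga3*, -1.98 to 6.59 for *Itga6*, -0.950 to 0.754 for *Itgb6*, -3.85 to 2.64 for *Lama3*, -6.90 to 4.47 for *Lama5*, -0.891 to 1.66 for *Lamb1*, -0.0384 to 6.61 for *Lamb2*, -8.26 to 0.104 for *Lamb3* and -2.59 to 0.654 for *Nid1*. Of the 11 members past the unadjusted p, *Hspg2*, *Itga1*, *Lama1* and *Lamc1* stayed past it in all 8 fits. Members with few counts, such as *Itgal* and *Lamc3*, are limited by depth.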

Other observations

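Cultures with Y-linked RNA and cultures with *Xist* RNA were compared in the edgeR fit with group as a term. *Lama2*, the α chain of muscle and nerve, had the largest difference among members. It was at 5.96, 3.45, 7.22 and 5.10 CPM in the Y-linked cultures (control 14 and 21, GDNF 17 and 22). In the *Xist* cultures (control 3 and 7, GDNF 6 and 12) it was at 1.02, 2.17, 1.53 and 1.62 CPM. Of these, control culture 3 and GDNF culture 6 held some Y-linked RNA as well. The log2 difference of *Lama2* was 1.76 (SE 0.32, unadjusted p = 0.00032, adjusted p = 0.0605). *Itga8* (0.77, SE 0.25) and *Nid1* (0.54, SE 0.23) also had higher means in the Y-linked cultures at an unadjusted p of 0.05, and *Itga6* (-0.58, SE 0.19), *Lama5* (-0.58, SE 0.21) and *Agrn* (-0.43, SE 0.17) had lower means. None of the members passed an adjusted p of 0.05 (0 of 41, with 6 at an unadjusted p of 0.05), beside 0.411% of all genes, and 12.4% of all genes were at an unadjusted p of 0.05. Stromal and mesangial markers summed to 357–984 TPM in the Y-linked cultures and 101–719 TPM in the *Xist* cultures, and their part in these values was not tested.

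The control cultures varied more than the GDNF cultures in 26 of 41 members by the SD of log2 CPM, a share of 63.4% beside 69.8% of all genes. Median SDs of the members were 0.52 in the controls and 0.36 in the GDNF cultures, beside 0.38 and 0.27 for all genes.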
